A study of Mus musculus with 6 samples.

Results

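The B cell and plasma cell transcripts are the array's probe sets for 6 of the 18193 genes it annotates: Ighm, Jchain, Mzb1, Cd79a, Cd79b and Ms4a1. A probe set, a group of short probes against one transcript, was counted when its only annotated symbol, current or older, was one of these. This gave 17 of 45037 non-control probe sets: 11 for Ighm, 2 for Ms4a1 and 1 for each of the other genes. The genes were picked with earlier results of these arrays in view, among them the differences of Ighm and Jchain between rosiglitazone-treated and untreated apoE-deficient hearts. Differences of these genes are therefore given as a description with no p-value. Where a count past the significance threshold is printed, the share over all probe sets stands beside it and nothing is read from it.

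Heart RNA was hybridised to 6 Affymetrix arrays, 2 for each of 3 groups of mice on the B6 background. The treated group was apoE-deficient and received rosiglitazone, an antidiabetic agonist of the nuclear receptor PPAR gamma, at 30 mg/kg per day for 2 months from 6 months of age; its tissue is labelled failing heart. The other groups were apoE-deficient mice without the drug and B6 mice with the wild-type gene, also without it. Mice of every group were 8 months old and ate a diet with 7% fat and 0.15% cholesterol. ApoE is an apolipoprotein through which lipoprotein particles are cleared. The labels do not say whether 1 array stands for 1 animal or for a pool, so p-values here reflect array-to-array spread alone, and that may be technical. The sources used here give neither sex nor the number of animals.

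Values are quantile-normalized signals unless stated otherwise, and differences are of log2(signal + 11.1) with the SE of the limma fit (2 arrays in each group). The added constant understates changes of dim probe sets. The arrays differed in brightness before normalization, with 2%-trimmed means of 341 and 263 in treated hearts, 126 and 130 in untreated apoE-deficient hearts, and 175 and 149 in B6 hearts. The Apoe probe set read 62.2 and 65.2 in treated hearts and 26.6 and 67.4 in untreated apoE-deficient hearts, against 3834 and 3698 in B6 hearts. The 8 cardiomyocyte markers summed to 118100 and 122700 in treated hearts, 130100 and 129900 in untreated apoE-deficient hearts, and 131300 and 130600 in B6 hearts.

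B cells carry a membrane form of immunoglobulin that signals through the paired chains CD79A and CD79B. Plasma cells, their secreting descendants, make large amounts of immunoglobulin mRNA, lose much of the surface receptor, and join IgM and IgA into polymers with the J chain. Polymeric immunoglobulin is carried across epithelia of the airways and gut by the receptor encoded by Pigr. In RNA from whole tissue, more cells of a type and more RNA per cell cannot be told apart.

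Promoter sequence is shown for 2 of the 6 genes, Jchain and Cd79a, from RefSeq (GRCm38.p6), and that of the other genes was not used. Each window holds the 250 bases before the gene start. Jchain had one of the large differences of the set and Cd79a a small one. Jchain lies at chr5:88527898-88528147 on the minus strand and Cd79a at chr7:24897247-24897496 on the plus strand. Capitals mark matches on either strand to 4 motifs searched: the octamer ATTTGCAT bound by Oct factors, the EBF1 palindrome, in which TCCC and GGGA stand 2 bases apart, the E-box CAGNTG bound by E2A proteins, and the ETS core GGAAGT.
Jchain: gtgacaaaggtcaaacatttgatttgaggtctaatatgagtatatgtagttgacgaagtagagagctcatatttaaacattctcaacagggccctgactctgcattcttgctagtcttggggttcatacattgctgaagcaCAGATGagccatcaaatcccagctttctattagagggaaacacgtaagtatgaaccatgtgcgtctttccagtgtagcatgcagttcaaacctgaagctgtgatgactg
Cd79a: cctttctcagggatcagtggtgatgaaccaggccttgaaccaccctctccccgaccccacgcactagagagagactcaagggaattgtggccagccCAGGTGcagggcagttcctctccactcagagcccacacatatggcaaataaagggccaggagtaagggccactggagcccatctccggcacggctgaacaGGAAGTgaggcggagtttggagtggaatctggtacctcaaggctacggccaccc
Both windows held an E-box, at bases 109 to 104 before the start of Jchain and 154 to 149 before that of Cd79a, and the Cd79a window also held the ETS core at 54 to 49. The E-box is found in 44.8% of 32851 RefSeq promoter windows of this length and the ETS core in 19.7%. The octamer (1.60% of windows) and the EBF palindrome (0.779%) were not among the letters of either window. The motifs did not overlap each other.

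Ighm encodes the constant region of the IgM heavy chain, and its probe sets did not behave alike. Probe set 1427351_s_at read 1675 and 2022 in treated hearts and 26.4 and 8.32 in untreated apoE-deficient hearts, against 49.0 and 55.8 in B6 hearts. Probe set 1427329_a_at read 1172 and 1456 in treated hearts and 128 and 83.3 in untreated apoE-deficient hearts, against 124 and 79.9 in B6 hearts. Probe set 1425385_a_at read 322 and 348 in treated hearts, 116 and 149 in untreated apoE-deficient hearts, and 39.6 and 75.2 in B6 hearts. In all 3 probe sets both treated arrays lay above the other 4 arrays. For 1425385_a_at the untreated apoE-deficient arrays in turn lay above both B6 arrays, for 1427351_s_at they lay below them, and for 1427329_a_at these groups overlapped.

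The treated minus untreated apoE-deficient difference was 6.10 ± 0.28 for 1427351_s_at, which ranked 6 from the highest of 27022 tested probe sets, 3.52 ± 0.23 for 1427329_a_at (rank 30) and 1.28 ± 0.24 for 1425385_a_at (rank 436). Against B6 the treated arrays differed by 4.87 ± 0.28, 3.57 ± 0.23 and 2.39 ± 0.24 in the same order. Those values share the treated arrays with the comparison that was in view when the genes were picked, so no p-value is given for them either. The 3 differences kept their sign in every alternative setting run, at 4.82 to 6.85, 3.14 to 3.80 and 1.08 to 1.57 for treated minus untreated apoE-deficient arrays when the unscaled signals are left aside.

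The other 4 tested Ighm probe sets differed less between treated and untreated apoE-deficient hearts. Their treated minus B6 differences were 0.54 ± 0.24 (1427870_x_at), 1.03 ± 0.36 (1425247_a_at), 0.52 ± 0.28 (1452535_at) and 0.50 ± 0.42 (1425324_x_at). Untreated apoE-deficient minus B6 differences were -0.13, 0.51, 0.69 and 0.39 in the same order. Probe set 1427870_x_at read 139 and 128 in treated hearts, 60.7 and 104 in untreated apoE-deficient hearts, and 81.6 and 95.2 in B6 hearts, with the treated arrays highest. Probe set 1425247_a_at read 66.5 and 50.03 in treated hearts, 44.9 and 30.4 in untreated apoE-deficient hearts, and 32.2 and 15.3 in B6 hearts, in that order of means with overlap between the untreated groups. Probe set 1452535_at read 54.1 and 45.1 in treated hearts and 50.8 and 63.8 in untreated apoE-deficient hearts, against 28.6 and 33.8 in B6 hearts. There the apoE-deficient groups overlapped and both lay above B6. Probe set 1425324_x_at, just above the brightness filter, read 23.4 and 32.1 in treated hearts, 20.1 and 29.8 in untreated apoE-deficient hearts, and 10.4 and 23.6 in B6 hearts, with overlap throughout.

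For these 4 the treated minus untreated apoE-deficient differences were 0.67 ± 0.24 (1427870_x_at), 0.52 ± 0.36 (1425247_a_at), -0.17 ± 0.28 (1452535_at, which turned to 0.032 with spike-in scaling and 0.91 unscaled) and 0.11 ± 0.42 (1425324_x_at). The last turned negative without treated replicate 2 (-0.050) or untreated replicate 1 (-0.084). Another 4 Ighm probe sets stayed under the filter. Their signals ran from 1.03 to 23.1 in treated hearts, from 1.34 to 25.1 in untreated apoE-deficient hearts and from 1.14 to 33.8 in B6 hearts. Probe set 1451949_at read 23.1 and 15.0 in treated hearts, 6.95 and 25.1 in untreated apoE-deficient hearts, and 24.3 and 5.17 in B6 hearts, with overlap throughout. Probe set 1426196_at read 10.6 and 7.12 in treated hearts, 3.98 and 24.2 in untreated apoE-deficient hearts, and 24.0 and 33.8 in B6 hearts, so that B6 lay above the treated arrays. Probe set 1427869_at stayed between 1.03 and 1.35 on all 6 arrays. Probe set 1427756_x_at read 17.7 and 14.6 in treated hearts and 21.6 and 20.8 in untreated apoE-deficient hearts, against 2.11 and 2.59 in B6 hearts. In Affymetrix naming, the ending _a_at marks alternative transcripts of a gene, _s_at probes shared by several transcripts, and _x_at probes that can bind other sequences. Immunoglobulin genes are rearranged and closely related, so signal of related immunoglobulin transcripts in these probe sets cannot be told apart from Ighm. A further 4 probe sets list Ighm together with other immunoglobulin genes and were left out.

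**Figure D1:**
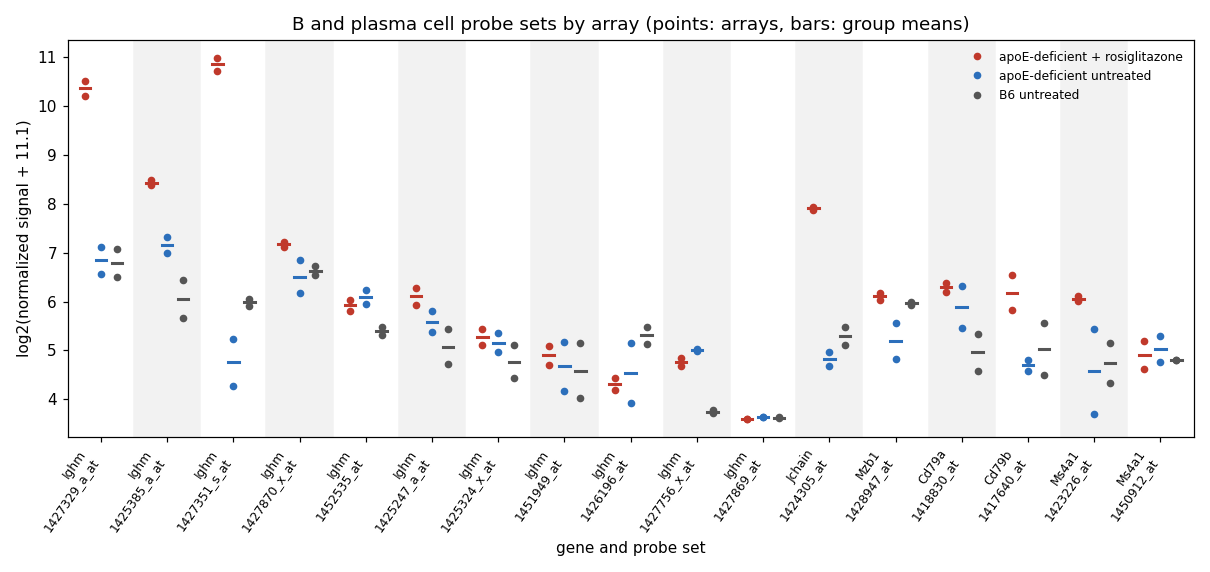
Log2(normalized signal + 11.1) of the 17 probe sets of the B and plasma cell genes on the 6 arrays (points), with the mean of each group of 2 as a bar. Ighm 1427351_s_at, Ighm 1427329_a_at and Jchain stand furthest apart in treated hearts. Ighm 1425385_a_at (1.28), Cd79b (1.49) and Ms4a1 1423226_at (1.49) differ by less between treated and untreated apoE-deficient hearts. Most of the 17 lie in the lower part of the scale.

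Jchain encodes the joining chain of polymeric IgM and IgA. Its probe set read 234 and 224 in treated hearts and 14.4 and 20.1 in untreated apoE-deficient hearts, against 23.4 and 33.3 in B6 hearts. The deposited signals before normalization were 416 and 305, 9.76 and 14.6, and 20.5 and 25.4 on the treated, untreated apoE-deficient and B6 arrays in turn. Both treated arrays lay far above the other 4, and the untreated apoE-deficient arrays lay below B6 without overlap. The difference was 3.09 ± 0.26 for treated minus untreated apoE-deficient arrays (rank 42) and 2.62 ± 0.26 for treated minus B6 arrays (rank 49). Every alternative setting run left both positive, from 2.05 to 3.67 and from 1.83 to 2.99 with the unscaled signals left aside.

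Mzb1 encodes a chaperone of the endoplasmic reticulum that helps plasma cells and marginal zone B cells assemble IgM. It read 61.6 and 54.7 in treated hearts and 35.9 and 17.2 in untreated apoE-deficient hearts, against 50.2 and 52.4 in B6 hearts. The treated arrays were the highest by a small margin over B6, and the untreated apoE-deficient arrays were the lowest. The difference was 0.92 ± 0.32 for treated minus untreated apoE-deficient arrays and 0.15 ± 0.32 for treated minus B6 arrays. Without untreated replicate 1 the first of these was 1.29.

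Cd79a and Cd79b encode the signalling chains of the B cell receptor. Cd79a read 72.1 and 62.4 in treated hearts, 32.6 and 68.2 in untreated apoE-deficient hearts, and 12.9 and 29.5 in B6 hearts, so that the apoE-deficient groups overlapped and both lay above B6. Cd79b read 45.5 and 81.9 in treated hearts, 16.9 and 12.9 in untreated apoE-deficient hearts, and 36.1 and 11.4 in B6 hearts, so that the treated arrays were highest and the untreated groups overlapped. The treated minus untreated apoE-deficient difference was 0.41 ± 0.39 for Cd79a, which turned to -0.021 without untreated replicate 1, and 1.49 ± 0.45 for Cd79b. The Cd79b value was 1.84 and 1.13 when treated replicate 1 or 2 was left out, and 1.60 and 1.37 when untreated replicate 1 or 2 was. Against B6 the treated arrays differed by 1.33 ± 0.39 in Cd79a and 1.16 ± 0.45 in Cd79b.

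Ms4a1 encodes CD20, a surface protein of mature B cells that plasma cells lack. Probe set 1423226_at read 53.6 and 57.9 in treated hearts, 1.95 and 32.3 in untreated apoE-deficient hearts, and 24.4 and 8.95 in B6 hearts. The treated arrays lay close together and above the rest, while the arrays of each untreated group differed widely. Its differences were 1.49 ± 0.58 for treated minus untreated apoE-deficient arrays and 1.33 ± 0.58 for treated minus B6 arrays. The first was 2.36 without untreated replicate 2, the brighter of its group. The other probe set, 1450912_at, lay just under the brightness filter at 25.3 and 13.4 in treated hearts, 27.98 and 16.00 in untreated apoE-deficient hearts, and 16.8 and 16.8 in B6 hearts, and the treated arrays overlapped both other groups.

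A probe set was called when limma's Benjamini-Hochberg adjusted p over all 27022 tested probe sets was under 0.05. Of the 17 member probe sets, 12 passed the brightness filter, of which 3 (Ighm 1425324_x_at, Cd79b and Ms4a1 1423226_at) would have fallen under it on the mean of the other 4 arrays. In treated minus untreated apoE-deficient arrays 5 of these 12 were called, each as higher: the 3 brightest Ighm probe sets, Jchain and Cd79b. Cd79b left this count when any one treated or untreated apoE-deficient array was left out. The share over all tested probe sets was 10% as higher, 9.81% as lower and 19.8% in either direction, and nothing is read from the count because the genes were picked on this comparison. In treated minus B6 arrays 4 of the 12 were called, each as higher, namely the same Ighm probe sets and Jchain, where 7.46% of all tested probe sets were called as higher, 7.58% as lower and 15% in either direction. The arrays did not overlap, with the treated ones higher, in 9 of the 12 against untreated apoE-deficient arrays and in 11 of the 12 against B6. The same was seen in 28.6% and 26.4% of all tested probe sets, and treated arrays lay lower without overlap in 31.4% and 31.1%.

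**Figure D2:**
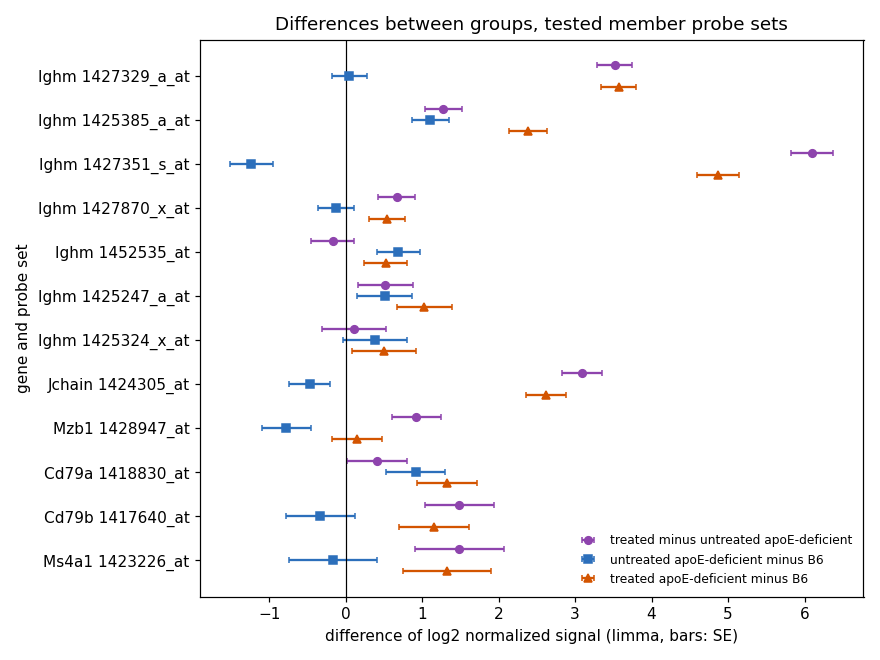
Differences of log2 normalized signal ± SE (limma) for the 12 member probe sets that passed the brightness filter, with treated minus untreated apoE-deficient as circles, untreated apoE-deficient minus B6 as squares and treated apoE-deficient minus B6 as triangles. Both differences that involve the treated arrays lie far to the right for Ighm 1427351_s_at (6.10 and 4.87), Ighm 1427329_a_at (3.52 and 3.57) and Jchain (3.09 and 2.62), while the squares lie between -1.23 and 1.11.

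The comparison of untreated apoE-deficient with B6 hearts asked what the deficiency alone went with. It shares the untreated apoE-deficient arrays with the comparison on which the genes were picked. Of the 12 tested member probe sets 2 were called, beside 7.06% of all tested probe sets in either direction (3.17% higher and 3.9% lower), and they were Ighm probe sets of opposite sign. The difference was 1.11 ± 0.24 for Ighm 1425385_a_at and -1.23 ± 0.28 for Ighm 1427351_s_at. The first left the count without untreated replicate 1 (1.27), untreated replicate 2 (0.945) or B6 replicate 1 (0.724), and with unscaled signals. The second left it without either treated array (-1.23 each), untreated replicate 2 (-0.756), B6 replicate 1 (-1.31) or B6 replicate 2 (-1.15). Both left it when the brightness filter or the intensity trend of the variance model was dropped.

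In the same comparison Jchain gave -0.47 ± 0.26, Mzb1 -0.78 ± 0.32, Cd79a 0.92 ± 0.39, Cd79b -0.33 ± 0.45 and Ms4a1 -0.16 ± 0.58. The Cd79b value was 0.206 without B6 replicate 1, and that of Ms4a1 was 0.704 without untreated replicate 1 and 0.248 without B6 replicate 1. Untreated apoE-deficient arrays lay above B6 without overlap in 3 of the 12 and below in 3, and over all tested probe sets in 24.3% and 25.9%.

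Other immunoglobulin transcripts were set beside Ighm and Jchain. Annotation named 32 further probe sets for a single immunoglobulin gene, of which 10 passed the brightness filter. In treated minus untreated apoE-deficient arrays 5 of these 10 were called, each higher, where 10% of all tested probe sets were called higher. The immunoglobulin probe sets, too, were chosen with results of these arrays known. Igha, the constant region of the IgA heavy chain, was higher on its 3 probe sets, by 3.13 ± 0.41 (1421653_a_at), 2.24 ± 0.33 (1429381_x_at) and 1.88 ± 0.34 (1425763_x_at). These differences are a description. Igha 1421653_a_at read 311 and 271 in treated hearts and 45.9 and 9.81 in untreated apoE-deficient hearts, against 37.6 and 28.7 in B6 hearts. Of the Igha calls, that of 1425763_x_at was lost without treated replicate 1 (1.71) and without the intensity trend.

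The kappa light chain variable gene Igkv8-30, named after its values were seen, read 572 and 512 in treated hearts and 52.5 and 18.5 in untreated apoE-deficient hearts, against 18.9 and 8.20 in B6 hearts. Its treated minus untreated apoE-deficient difference of 3.67 ± 0.36 is a description. Ighg3 encodes the constant region of an IgG heavy chain. Its probe sets under the filter differed by 0.071 (1447998_at), -0.59 (1426198_at) and 0.15 (1426199_x_at). The tested Ighg3 probe set, 1427503_at, differed by 1.58 ± 0.46. It passed the brightness filter through the treated arrays, and its call was lost without the filter (limma adjusted p = 0.0698), without the intensity trend, with a pseudocount of 1 and without any one of the 6 arrays except untreated replicate 2 (1.04 to 1.79). In treated minus B6 arrays 5 of the 10 were called, each higher, where 7.46% of all tested probe sets were: the 3 Igha probe sets (2.77, 2.58 and 1.63), Igkv8-30 (4.52) and Igkv9-120 1460423_x_at (1.95). The call of Igha 1429381_x_at was lost without treated replicate 1 (1.68), treated replicate 2 (1.58) or B6 replicate 2 (1.56). That of Igkv9-120, which also passed the filter through the treated arrays, was lost without treated replicate 1 (2.11), treated replicate 2 (1.80) or B6 replicate 2 (1.59). Without the intensity trend Igkv8-30 alone of the 5 was called. The remaining tested ones, such as the kappa probe set Igk 1452557_a_at at 36.5 and 49.6 in treated hearts, 27.9 and 19.7 in untreated apoE-deficient hearts, and 23.5 and 23.0 in B6 hearts, were not called in either comparison. Among those under the filter, Igk 1425738_at was named after its values were seen, as the one with the largest treated minus untreated apoE-deficient difference (3.25). It read 118 and 102 in treated hearts and 1.53 and 1.58 in untreated apoE-deficient hearts, against 10.7 and 4.77 in B6 hearts. The other Igk probe sets under the filter differed by 0.21 (1426178_at) and -0.041 (1427757_at).

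**Figure D3:**
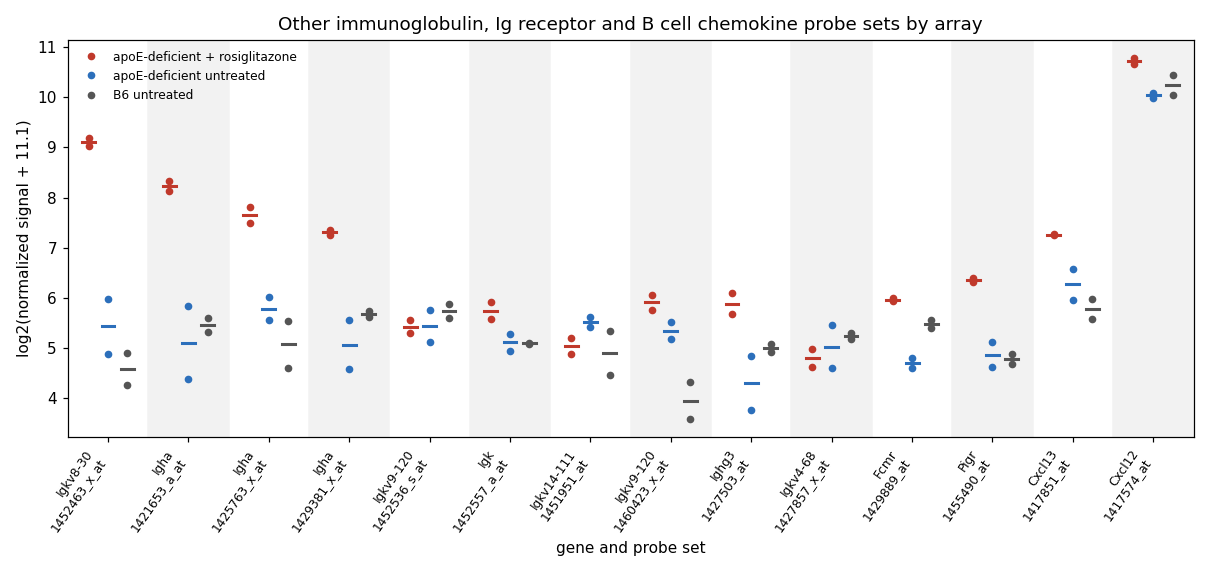
Log2(normalized signal + 11.1) on the 6 arrays for the 10 other immunoglobulin probe sets that passed the brightness filter, and for the receptors Fcmr and Pigr and the chemokines Cxcl13 and Cxcl12. Igkv8-30 and the 3 Igha probe sets lie highest in treated hearts, while Igkv9-120 1452536_s_at, Igkv14-111 and Igkv4-68 lie low in all groups and were not called.

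The wider B lineage was described by lists. These too were chosen with earlier results of these arrays known, so the calls and p-values of their genes are a description. Those of surface proteins, receptor signalling, transcription factors, plasma cell genes and other immunoglobulins held 59 genes on the array, of which 48 passed the brightness filter. In treated minus untreated apoE-deficient hearts 4 of the 48 were called higher and 4 lower, with a median difference of -0.10, against 10% and 9.81% and a median of -0.016 over all tested probe sets. The genes called higher were Igha and Ighg3, described above, the IgM receptor Fcmr (1.26 ± 0.32, limma adjusted p = 0.0244) and the surface protein Cd24a of immature B cells, which epithelia also make (1.70 ± 0.17, limma adjusted p = 1.84e-04). The call of Fcmr was lost without either treated array (1.29 and 1.24) and without untreated replicate 1 (1.16), and without the filter (limma adjusted p = 0.0609).

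The genes that fell were the signalling kinase Prkcb (-0.68 ± 0.18), the germinal centre repressor Bcl6 (-0.41 ± 0.11), the plasma cell transcription factor Xbp1 (-0.31 ± 0.05) and Creld2, a gene of endoplasmic reticulum stress (-0.87 ± 0.10). Their limma adjusted p-values were 0.0250, 0.0255, 0.00298 and 5.12e-04. Prkcb lost its call without either treated array (-0.73 and -0.63), without untreated replicate 1 (-0.57), and with trimmed-mean, spike-in or median scaling. For Bcl6 the call depended on every array of both groups, with -0.49 and -0.34 when treated replicate 1 or 2 was left out and -0.38 and -0.44 when untreated replicate 1 or 2 was, and it was also lost with the same scalings and without the intensity trend. Xbp1 too lost its call without the trend. All 4 were higher in treated hearts in the unscaled signals (0.579, 0.872, 0.822 and 0.408), where the median of all probe sets was itself higher by 1.13. Xbp1 and Bcl6 are active in many cell types besides B cells.

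Of the listed genes with the next smallest p in that comparison, none of which was called by limma, Fcgr2b differed by 0.37 and Cd83 by -0.47 among surface proteins, and Bank1 by 0.71, Blnk by -0.37 and Plcg2 by -0.24 in receptor signalling. Among transcription factors Pax5 differed by -0.93, Tcf3 by -0.32 and Ebf1 by 0.45, and among plasma cell genes Hsp90b1 by -0.12 and Ell2 by 0.20. Pou2af1, Cd22 and Sdc1, chosen after their values were seen, were not called either. Pax5, the transcription factor that fixes B cell identity, read 29.1 and 29.9 in treated hearts, 84.1 and 51.6 in untreated apoE-deficient hearts, and 39.6 and 71.5 in B6 hearts, so that the treated arrays were the lowest. Pou2af1, the coactivator of immunoglobulin promoters, read 26.8 and 34.9 in treated hearts, 19.2 and 12.7 in untreated apoE-deficient hearts, and 20.1 and 23.2 in B6 hearts. Cd22, an inhibitory B cell coreceptor, read 56.9 and 58.7 in treated hearts, 61.1 and 46.3 in untreated apoE-deficient hearts, and 40.3 and 23.4 in B6 hearts. The surface marker of plasma cells Sdc1 read 168 and 155 in treated hearts, 123 and 147 in untreated apoE-deficient hearts, and 136 and 164 in B6 hearts. Tnfrsf17, the plasma cell receptor BCMA, was under the brightness filter, as were Cr2, Fcer2a, Fcrla and Blk.

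In untreated apoE-deficient against B6 hearts 4 of the 48 were called, each higher, where 3.17% of all tested probe sets were called higher and 3.9% lower: Cd37, Prkcb, Syk and Creld2. Of the 9 macrophage and neutrophil markers tested there, Adgre1 (0.96), Cd68 (0.93) and Lyz2 (0.58) were called higher. Csf1r (-0.26) and S100a8 (-1.38) were called lower, and the rest were not called. The part of such cells in the values of Cd37, Prkcb, Syk and Creld2 was not tested. Cd37, a tetraspanin of mature B cells and other leukocytes, rose by 1.68 ± 0.31 (limma adjusted p = 0.0154), a call lost without untreated replicate 1 (1.36) or B6 replicate 2 (1.49). Prkcb rose by 1.14 ± 0.18 (limma adjusted p = 0.00712), Creld2 by 0.68 ± 0.10 (0.00660) and the receptor-proximal kinase Syk by 0.52 ± 0.13 (0.0421). The Syk call was lost without any one of the 6 arrays (0.407 to 0.636), without the filter, and with trimmed-mean, median or no scaling. All 4 calls were lost without the intensity trend, and those of Prkcb (0.769) and Creld2 (0.312) also in unscaled signals. In treated apoE-deficient against B6 hearts Igha (2.77), Cd37 (1.67 ± 0.31), Cd24a (1.33 ± 0.17) and Ell2, an elongation factor used in secreted heavy chain mRNA (0.52 ± 0.12), were called higher and Xbp1 lower (-0.45 ± 0.05, though 0.376 unscaled), with 7.46% and 7.58% over all tested probe sets. All 5 calls were lost without the intensity trend. Cd37 lost that call without treated replicate 1 (1.73) or treated replicate 2 (1.61), and Ell2 without treated replicate 1 (0.424) or B6 replicate 1 (0.455).

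Genes that carry immunoglobulin or draw B cells were listed apart, with 10 on the array and 6 above the brightness filter. This list was also chosen with earlier results of these arrays known, so its calls and p-values are a description. In treated minus untreated apoE-deficient hearts 4 of the 6 were called, each higher, where 10% of all tested probe sets were. Pigr, the epithelial carrier of polymeric IgA and IgM, read 69.2 and 72.8 in treated hearts and 23.7 and 13.5 in untreated apoE-deficient hearts, against 18.5 and 14.7 in B6 hearts. Pigr rose by 1.49 ± 0.35 (limma adjusted p = 0.0167), the B cell chemokine Cxcl13 by 0.98 ± 0.26 (0.0290), the chemokine Cxcl12 by 0.68 ± 0.11 (0.00314) and the IgG receptor Fcgrt by 0.24 ± 0.07 (0.0476). Pigr passed the brightness filter through the treated arrays, and without a filter its limma adjusted p was 0.0402. The calls of Pigr (1.52 and 1.46) and Cxcl13 (0.991 and 0.977) were lost without treated replicate 1 or treated replicate 2, and that of Cxcl13 also without untreated replicate 1 (0.677), without the filter and without the intensity trend. Cxcl12 lost its call without the trend. The Fcgrt call was lost without treated replicate 1 (0.172) and without either untreated array (0.251 and 0.230), and with trimmed-mean scaling, a pseudocount of 1, no filter, no intensity trend or the replicate block (limma adjusted p = 0.0508 to 0.209). Treated against B6 hearts, Pigr (1.57), Cxcl13 (1.48) and Cxcl12 (0.49) were called higher. Pigr lost that call without either treated array (1.60 and 1.54) or B6 replicate 2 (1.47), and Cxcl12 without treated replicate 1 (0.43) or B6 replicate 1 (0.285). Cxcl12 and Cxcl13 lost it without the intensity trend. Tnfsf13b, the B cell survival factor BAFF, also chosen after its values were seen, read 79.0 and 74.0 in treated hearts, 69.3 and 55.7 in untreated apoE-deficient hearts, and 44.2 and 47.7 in B6 hearts, and was not called.

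Markers of other cells moved with the same arrays. In treated minus untreated apoE-deficient hearts 10% of all tested probe sets were called higher and 9.81% lower, and the counts below stand beside these shares. The 12 airway and lung markers summed to 16180 and 17080 in treated hearts and to 221 and 285 in untreated apoE-deficient hearts, against 181 and 247 in B6 hearts. Of the 10 above the filter, most of which passed it through the treated arrays, 7 were called higher in treated minus untreated apoE-deficient hearts, among them Bpifa1, a secreted defence protein of the upper airways, at 7109 and 7212 in treated hearts and 12.5 and 2.37 in untreated apoE-deficient hearts. The differences were 8.65 for Bpifa1, 5.88 for Cyp2f2, 7.55 for Scgb1a1 and 4.10 for Scgb3a1. The alveolar surfactant gene Sftpc, not among the 4 of its list with the smallest p, was not called. It read 63.1 and 61.7 in treated hearts, 45.7 and 28.6 in untreated apoE-deficient hearts, and 38.3 and 22.3 in B6 hearts, with the treated arrays highest. Sftpb was tested and not called either. It read 44.5 and 22.2 in treated hearts, 18.3 and 20.6 in untreated apoE-deficient hearts, and 15.3 and 55.5 in B6 hearts. Its treated arrays overlapped B6. Sftpa1 and Sftpd were under the filter. Sftpd read 58.4 and 50.1 in treated hearts, 1.13 and 29.0 in untreated apoE-deficient hearts, and 19.3 and 5.16 in B6 hearts. Sftpa1 read 25.9 and 37.1, 26.9 and 11.4, and 1.42 and 11.6 in turn. The 6 white adipocyte markers on the array summed to 21930 and 21130 in treated hearts and to 8258 and 8146 in untreated apoE-deficient hearts, against 9399 and 8626 in B6 hearts, and 4 of 5 tested were called higher, namely Adipoq (5.09), Cidec (4.94), Fabp4 (1.09) and Lipe (1.32). Fabp4 made up most of each sum, at 16860 and 15890 in treated hearts and 7746 and 7578 in untreated apoE-deficient hearts. The 6 brown adipocyte markers summed to 38130 and 37280, 28260 and 27870, and 27420 and 26910 on the treated, untreated apoE-deficient and B6 arrays in turn, and Cidea (2.06), Ucp1 (8.69), Elovl3 (2.89) and Otop1 (3.80) were called higher. Ucp1 and Otop1 passed the brightness filter through the treated arrays. Cox7a1 (0.011) and Cox8b (-0.066) were not called and made up most of each sum, at 12490 and 14660 on untreated apoE-deficient replicate 1. Of the mesothelium markers Upk1b (1.01) and Msln (0.74) were called higher, and Wt1 (-0.69) and Lrrn4 (0.44) were not called. The part of airway, fat or other attached tissue in the values of Ighm, Jchain and Igha was not tested.

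T cell markers were mostly dim. The calls below again stand beside 10% of all tested probe sets called higher and 9.81% lower. The 14 on the array summed to 610 and 669 in treated hearts, 625 and 661 in untreated apoE-deficient hearts, and 657 and 819 in B6 hearts. Zap70 gave the largest part, at 280.5 and 354.7, 207.8 and 252.9, and 295.6 and 466.5 in turn. Cd3d, Cd3e, Cd4, Cd8b1, Cd2 and Cd5 were among the 8 under the filter, and 1 of the 6 tested was called in treated minus untreated apoE-deficient hearts, Cd8a, which was lower (-1.16). Cd28 (-0.56), Zap70 (0.44) and Il7r (0.62) were not called. The thymocyte genes Rag1, Rag2 and Dntt were under the filter, and Cd1d1 (1.07) was the member of that list of 6 called higher, beside Arpp21 (0.59) and Ptcra (-0.92), which were not called. Of the natural killer list, Ccl5 (1.55) was called higher among 4 tested, and Prf1 (-0.70), Gzma (0.67) and Gzmb (-0.15) were not called. The 10 markers of macrophages and neutrophils summed to 8486 and 8490 in treated hearts, 8268 and 8424 in untreated apoE-deficient hearts, and 6816 and 7088 in B6 hearts, with Mrc1 (0.33) and Csf1r (0.25) called higher, Adgre1 (-0.61) called lower and Cd14 (-0.36) not called. The 4 red blood cell markers summed to 178 and 109 in treated hearts and 338 and 408 in untreated apoE-deficient hearts, against 833 on each B6 array, with Alas2 (-1.46) and Hbb-b2 (-1.06) called lower and Slc4a1 (-0.65) not called. Of the cardiomyocyte markers Mb (-0.33), Tnni3 (-0.22) and Actc1 (-0.25) were called lower and Pln (0.22) higher, the 4 with the smallest p. Their part in the immunoglobulin values was not tested.

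**Figure D4:**
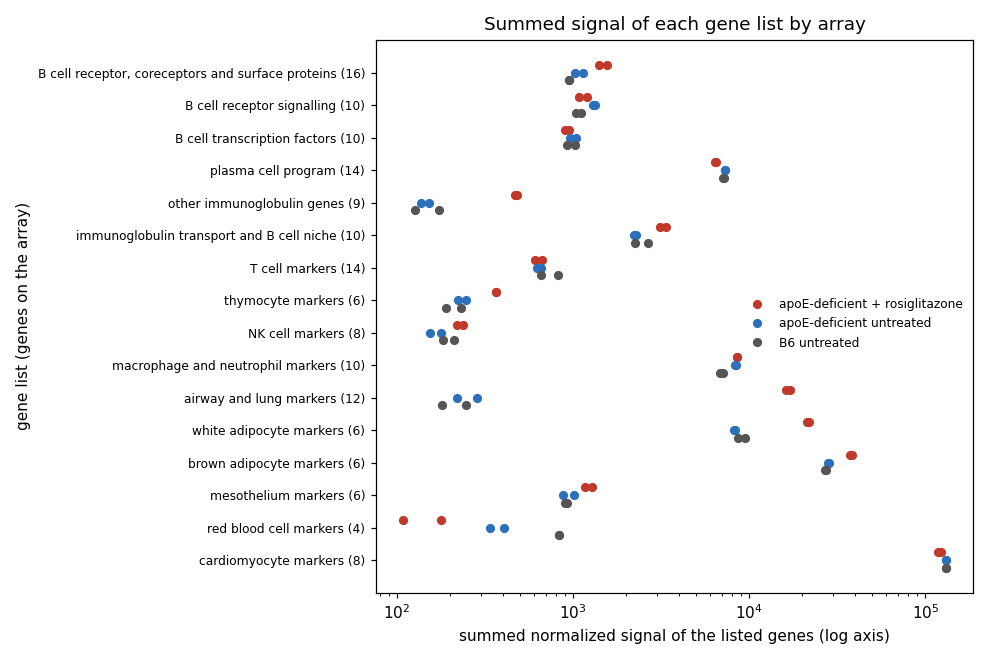
Summed normalized signal of each gene list on the 6 arrays, on a log axis, with the number of listed genes on the array in parentheses. The airway list (16180 and 17080 in treated hearts) and the list of other immunoglobulin genes (480 and 469) stand apart in treated hearts. There the white adipocyte (21930 and 21130) and brown adipocyte lists (38130 and 37280) also lie higher and the red blood cell list (178 and 109) lower. The B cell transcription factor and T cell lists lie close together in all groups. A sum can rest on 1 gene, as Igha gave 311 and 271 of the immunoglobulin sum in treated hearts.

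Profiles across the 6 arrays were compared as a description among 2780 genes whose signal spanned at least 1 on the log2 scale. The genes with the profile most like that of Jchain were the triglyceride enzyme Agpat2 (Pearson r = 0.999), Dusp6, Fasn, Npr3, Scd1, the lipid droplet gene Cidec, Fabp5, Fhl1, Btnl9 and Cdo1 (r = 0.993 or more). Most like Ighm 1427329_a_at were Tmed5 (r = 0.998), Thrsp, Pck1, Ednrb and Id4, with Pigr at rank 6 (r = 0.994), followed by Sult1d1, Gpd2, Hsd17b12 and Scara3 (r = 0.992 or more). With 2 arrays a group, any gene that is high in treated hearts and level elsewhere gives such an r.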

How the data were processed

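Heart RNA was purified with silica columns and hybridised as biotin-labelled cRNA, per the labels' protocols. The deposited values are linear signal intensities per probe set, and GCOS is the software named in the submitters' processing notes; the sources used here do not give its version, background correction or array scaling. No detection calls were used.

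Intensities of 45037 probe sets, without 64 controls, were quantile-normalized, raised by a pseudocount of 11.1 (25th percentile) and taken as log2. Probe sets with a mean above the 40th percentile (4.99) were tested with limma 3.58.1 (R 4.3.3; lmFit and eBayes with trend) in one fit of 6 arrays with 3 residual degrees of freedom, and p-values were adjusted by Benjamini-Hochberg over all 27022. The script was tested on simulated data. With 2 arrays a group, an exact permutation test cannot go below p = 0.333, and the number of arrays limits the precision.

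Of the probe sets, 34945 had 1 symbol, 932 several and 9160 none; 34741 were updated through gene numbers. A listed gene was represented by its brightest probe set. Every member is named with its values, and of each other list up to 4 genes with the smallest p in treated minus untreated apoE-deficient arrays, plus all called where 5 or fewer. Members got no p-value. The members and lists were chosen with earlier results of these data known. Alternatives changed the scaling, pseudocount, filter, variance trend, replicate block and arrays left out. Spike-in scaling moved the median of all probe sets to 0.181, 0.109 and 0.284 for the treated against untreated apoE-deficient, the untreated apoE-deficient against B6, and the treated against B6 comparison. The share of calls that were higher was 50.5%, 44.8% and 49.6% in these comparisons, against 79.6%, 80.9% and 92.5% with spike-in scaling, 64.7%, 25.7% and 45.8% with centred medians, and 99.9%, 4.65% and 99.7% unscaled. Promoter sequences are RefSeq's.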

Additional observations from a re-analysis of the deposited data

How the results depend on the processing

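Of 588 values of the 12 tested member probe sets under the alternatives, 520 kept their direction and side of the threshold, 31 newly passed, 23 lost their call and 14 turned sign; unless stated, the cause was not tested. In treated minus untreated apoE-deficient arrays the turned values were Cd79a without untreated replicate 1 (-0.0206), Ighm 1425324_x_at without treated replicate 2 (-0.0503) or untreated replicate 1 (-0.084), and Ighm 1452535_at with spike-in scaling (0.0319) or unscaled (0.91). In untreated apoE-deficient minus B6 arrays they were Cd79b without B6 replicate 1 (0.206), Ms4a1 1423226_at without untreated replicate 1 (0.704) or B6 replicate 1 (0.248), Ighm 1427870_x_at without untreated replicate 1 (0.212), and Ighm 1427329_a_at with trimmed-mean scaling (-0.0106), centred medians (-0.0781), unscaled signals (-0.308), and without untreated replicate 1 (-0.234) or B6 replicate 2 (-0.24). With single arrays left out, the treated minus untreated apoE-deficient values reached 0.84 for Cd79a and 0.309 for Ighm 1425324_x_at, and the untreated apoE-deficient minus B6 values reached -0.866 for Cd79b, -1.03 for Ms4a1 1423226_at, -0.466 for Ighm 1427870_x_at and 0.334 for Ighm 1427329_a_at at their other ends. Unscaled signals also turned Prkcb (0.579), Bcl6 (0.872), Xbp1 (0.822) and Creld2 (0.408) in treated minus untreated apoE-deficient arrays and Xbp1 (0.376) in treated minus B6 arrays. In treated minus untreated apoE-deficient arrays, member calls numbered 5, with 11 unscaled, 3 with the stricter filter (fewer tested), 3 without the intensity trend and 4 to 6 with an array left out. Calls in the other B lineage numbered 8, with 40, 5 without the trend and 4 to 9 in turn, and calls over all probe sets 5355, with 22739, 1653 and 2944 to 4996. In untreated apoE-deficient minus B6 arrays, member calls numbered 2, with 1 unscaled, and limma called 0 without the filter (3 at an unadjusted p under 0.05), 0 without the trend (5) and 0 to 1 with an array left out (0 without untreated replicate 2 or B6 replicate 1, with 3 and 2 unadjusted). The other B lineage there had 4, with 1 unscaled, 0 in limma without the trend (10 unadjusted) and 2 to 4 with an array left out. All probe sets had 1909, with 3039 under spike-in scaling, 10 without the trend and 614 to 1729 with an array left out. In treated minus B6 arrays, member calls numbered 4, with 8 under spike-in scaling, 12 unscaled and 4 to 6 with an array left out. The other B lineage there had 5, with 14, 34 and 3 to 6 in turn, and 0 in limma without the trend (16 unadjusted). All probe sets had 4066, with 7604, 18723 and 2192 to 4120, and 626 without the trend. The deviations of same-numbered arrays correlated at -0.0063, 0.0196 and 0.0329 between groups. These values showed no pairing by number, but they cannot exclude that same-numbered arrays were handled together. With the replicate block, member calls numbered 4, 2 and 5 in the 3 comparisons, other B lineage calls 9, 4 and 6, and all calls 5344, 1937 and 4103. Many member probe sets have small signals, on which their differences rest.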
